A study of Drosophila melanogaster with 2 samples.

Results

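Promoter peaks of noncoding RNAs that stand apart from any protein-coding promoter were described in nuclei of the Drosophila melanogaster mushroom body (MB), the paired memory centre of the fly brain. Peaks are stretches of DNA that were open to the Tn5 transposase in ATAC-seq, an assay that sequences the DNA into which this enzyme inserts adapters. Peaks of both replicates that shared at least 1 bp were merged into regions, and the 11705 of 15842 merged regions with a peak of each replicate were kept. A member was a kept region that covered an annotated transcription start site (TSS) of a gene of biotype ncRNA and lay more than 1 kb from every TSS of a protein-coding gene. This left 156 members, or 1.33% of the kept regions. They covered 202 start positions of 188 ncRNA genes. Another 298 kept regions covered an ncRNA start together with a protein-coding TSS, and 34 covered an ncRNA start with a protein-coding TSS at most 1 kb away, so that 488 kept regions in all lay over an ncRNA start.

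The series held 2 samples of 1 group, both from naive flies of the genotype w*;UAS-Unc84::2xGFP/+;R14H06-Gal4/+, each a pool of 50 to 60 heads taken 1 h after the time at which courtship training began for trained flies. The R14H06-Gal4 driver, from an enhancer of Adcy1, puts a GFP-tagged nuclear envelope protein on nuclei of Kenyon cells, the principal neurons of the MB, with sparse label in other cells, and tagged nuclei were pulled from the homogenate with antibody. According to the methods the flies were males. No condition was compared, and with 2 replicates the smallest two-sided p of an exact sign-flip test is 0.5, so no difference described here could pass 0.05.

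Long noncoding RNAs (lncRNAs) are transcripts without a long reading frame that are made by RNA polymerase II from promoters of their own. Some act as RNAs, such as roX1 in dosage compensation of the male X chromosome, and some are precursors from which microRNAs (miRNAs) are cut, so that the start of the lncRNA is the promoter of the miRNA. In the annotation most carry only a number, and antisense RNAs (asRNAs) run against a protein-coding gene.

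The annotation class ncRNA is wider than lncRNA. A lncRNA or asRNA start lay in 145 members, of which 131 were led by a lncRNA and 14 by an asRNA. The lead was the lncRNA start nearest to the summit or, where a member held no lncRNA start, the nearest asRNA start. The other 11 members held no start of a long RNA. Of those, 9 lay over the 5′ end of a miRNA hairpin or mature miRNA, which is a processing site and not a TSS, 1 over the RNA of RNase MRP and 1 over a small noncoding RNA. Thus 145 of the 156 members, called long RNA members here, covered an annotated lncRNA or asRNA start. Whether RNA was made from that start in these nuclei was not examined.

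Sequences around the starts of miRNA precursors are shown because the initiator, the element of a promoter that lies on the TSS, was most frequent there among the sets of starts compared. Among 27 long RNA starts of miRNA hosts in members, 7 carried an initiator, TCAGT or TCATT with its A within 3 bp of the annotated TSS. All 7 are printed from 100 bp before to 50 bp after the start, on the strand of the gene, from the dm6 assembly (Release 6). Capitals mark the initiator and, in lncRNA:CR31044, also a TATA box (TATAAA starting 36 to 22 bp before the TSS).
lncRNA:CR46004 (mir-276b, chr3L:10306784-10306934, + strand): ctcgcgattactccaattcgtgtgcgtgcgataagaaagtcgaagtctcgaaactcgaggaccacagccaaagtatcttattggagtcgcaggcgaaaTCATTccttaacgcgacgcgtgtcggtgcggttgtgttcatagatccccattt
lncRNA:CR46006 (mir-276a, chr3L:10363919-10364069, + strand): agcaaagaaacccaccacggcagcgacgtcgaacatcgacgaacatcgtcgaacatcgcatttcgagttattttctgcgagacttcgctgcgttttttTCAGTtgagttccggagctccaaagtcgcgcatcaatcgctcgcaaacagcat
lncRNA:CR43334 (mir-ban, upstream start, chr3L:628335-628485, + strand): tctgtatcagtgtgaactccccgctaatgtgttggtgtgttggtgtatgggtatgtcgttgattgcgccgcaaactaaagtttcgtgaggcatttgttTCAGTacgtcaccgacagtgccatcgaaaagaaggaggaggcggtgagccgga
lncRNA:CR43334 (mir-ban, downstream start, chr3L:639614-639764, + strand): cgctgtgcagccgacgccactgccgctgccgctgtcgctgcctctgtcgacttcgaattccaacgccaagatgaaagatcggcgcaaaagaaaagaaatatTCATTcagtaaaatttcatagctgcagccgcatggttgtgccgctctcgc
lncRNA:CR42651 (mir-10, chr3R:6816329-6816479, - strand): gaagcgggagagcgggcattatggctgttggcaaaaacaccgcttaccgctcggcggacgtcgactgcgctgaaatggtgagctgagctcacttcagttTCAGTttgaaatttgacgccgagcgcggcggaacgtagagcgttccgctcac
lncRNA:CR31044 (mir-279 and mir-996, chr3R:29214462-29214612, + strand): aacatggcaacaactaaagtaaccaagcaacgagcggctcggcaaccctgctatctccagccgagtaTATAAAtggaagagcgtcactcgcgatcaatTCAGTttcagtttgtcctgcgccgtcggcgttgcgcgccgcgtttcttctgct
lncRNA:CR45910 (mir-1000, chr3R:25589129-25589279, - strand): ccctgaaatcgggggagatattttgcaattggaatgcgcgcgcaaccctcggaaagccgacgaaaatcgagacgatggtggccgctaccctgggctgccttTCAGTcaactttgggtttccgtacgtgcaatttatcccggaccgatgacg

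Windows of 201 bp around the summit follow for 4 members with the GA repeat, GAGAGAG, which is the kind of sequence that the GAGA factor binds. The first 3 are among the 5 members with the highest fold enrichment, and lncRNA:CR32111 lies in the iroquois complex of homeobox genes. All are printed on the + strand of the same assembly, with GAGAGAG or its reverse complement CTCTCTC in capitals.
lncRNA:CR44933 (chr3R:7037388-7037588, + strand): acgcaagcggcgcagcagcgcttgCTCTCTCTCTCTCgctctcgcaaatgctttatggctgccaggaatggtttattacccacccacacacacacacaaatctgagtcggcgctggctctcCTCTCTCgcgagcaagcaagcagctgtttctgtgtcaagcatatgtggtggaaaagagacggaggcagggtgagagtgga
lncRNA:CR45223 (chr3R:17653886-17654086, + strand): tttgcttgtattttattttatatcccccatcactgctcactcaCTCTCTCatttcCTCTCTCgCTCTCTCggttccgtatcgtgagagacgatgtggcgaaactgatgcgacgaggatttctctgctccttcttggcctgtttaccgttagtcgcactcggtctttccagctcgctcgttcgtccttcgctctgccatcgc
lncRNA:CR44904 (chr2L:18796219-18796419, + strand): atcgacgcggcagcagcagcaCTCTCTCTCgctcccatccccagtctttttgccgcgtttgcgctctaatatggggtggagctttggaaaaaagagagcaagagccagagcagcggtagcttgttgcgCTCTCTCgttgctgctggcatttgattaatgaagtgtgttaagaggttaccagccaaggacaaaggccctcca
lncRNA:CR32111 (chr3L:12627760-12627960, + strand): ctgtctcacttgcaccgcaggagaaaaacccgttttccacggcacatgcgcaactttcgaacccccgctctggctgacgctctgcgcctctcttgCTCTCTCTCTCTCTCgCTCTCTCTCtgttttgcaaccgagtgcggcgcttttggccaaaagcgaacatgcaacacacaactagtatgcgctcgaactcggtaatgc

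The labelled tissue was checked against marker genes. All 10 Kenyon cell markers found in the annotation (such as ey, dac, toy and Mef2) and 4 of 4 neuronal markers had a peak of both replicates over a TSS. The same was true of 3 of 5 glial, 1 of 5 photoreceptor and 1 of 3 fat body markers, and of 0 of 3 muscle and 0 of 2 blood cell markers, so markers of some other cells were not absent. Of all 13968 protein-coding genes, 49.1% had such a peak, so these short lists are a weak check. Replicate 1 had 13868 peaks and replicate 2 had 14583. The lists gave no read totals, but the fragment pileup at each summit was solved from its fold enrichment and p-value. Its median over the members was 322 fragments in replicate 1, with a Poisson error of 5.57%, and 310.5 in replicate 2, with an error of 5.68%. Nothing in the labels said that the replicates came from separate crosses.

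Most noncoding RNA starts had no called peak. Of 1730 lncRNA and asRNA genes with at least 1 start more than 1 kb from protein-coding TSSs, 10.5% had a peak over such a start in replicate 1 (Wilson 95% interval 9.16 to 12.1%) and 10.6% in replicate 2 (9.27 to 12.2%), a mean of 10.6% ± 0.0817 (SD, n = 2). Among 13968 protein-coding genes the share was 50.5% ± 0.415 (SD, n = 2). A peak over any start of a protein-coding gene counted, so the 2 shares are not like for like. The part of the number of starts per gene was not tested. The long RNA genes without a peak in either replicate numbered 1526 (88.2%). In a pool of nuclei, a promoter open in few cells and one weakly open in many cannot be told apart. By gene, 182 had a peak over such a start in replicate 1, 184 in replicate 2 and 162 (9.36%) in both. Counted as merged regions, peaks at members' positions that were called in only 1 replicate numbered 4 in replicate 1 and 9 in replicate 2.

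Fold enrichment, the authors' ratio of fragment pileup over local background at the summit, was compared by percentile, the percent of kept regions with a lower value in the same replicate. The members had a median percentile of 62.2 ± 1.97 (SD, n = 2; 60.8 for replicate 1, 63.6 for replicate 2), against 67.5 ± 0.356 for 5747 regions over a protein-coding TSS and 31.1 ± 0.634 for 4790 distal regions, which covered no TSS and lay more than 1 kb from protein-coding ones. Members were 31.1 ± 1.33 percentile points above distal regions and 5.33 ± 2.32 points below protein-coding promoter regions (SD, n = 2; exact sign-flip permutation p = 0.5 for each). The difference from distal regions exceeded the spread between replicates many times over. However, a member had to cover a start and a distal region had to cover none, a rule that favours wide regions as members. Median region width was 1095.5 bp for members and 595 bp for distal regions, and its part was not tested beyond the width bands below. The difference from protein-coding promoters held in both replicates but turned to +0.91 ± 1.96 points when only genes with a lncRNA symbol were taken. It thus did not hold up as a difference of regions over lncRNA starts.

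The ranking of members was uneven, with a crowd at the top. In both replicates, 31 of 156 members (19.9%) lay in the highest 10% of fold enrichment, all of them long RNA members, against 8.65% of all kept regions, 13.8% of protein-coding promoter regions and 3.05% of distal regions. In the lowest 10% of both replicates were 2 members (1.28%), against 5.62% of all kept regions. A −log10 q of at least 5 in both replicates was reached by 143 members (91.7%), against 83.1% of all kept regions, 96.2% of protein-coding promoter regions and 69.9% of distal regions.

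**Figure D1:**
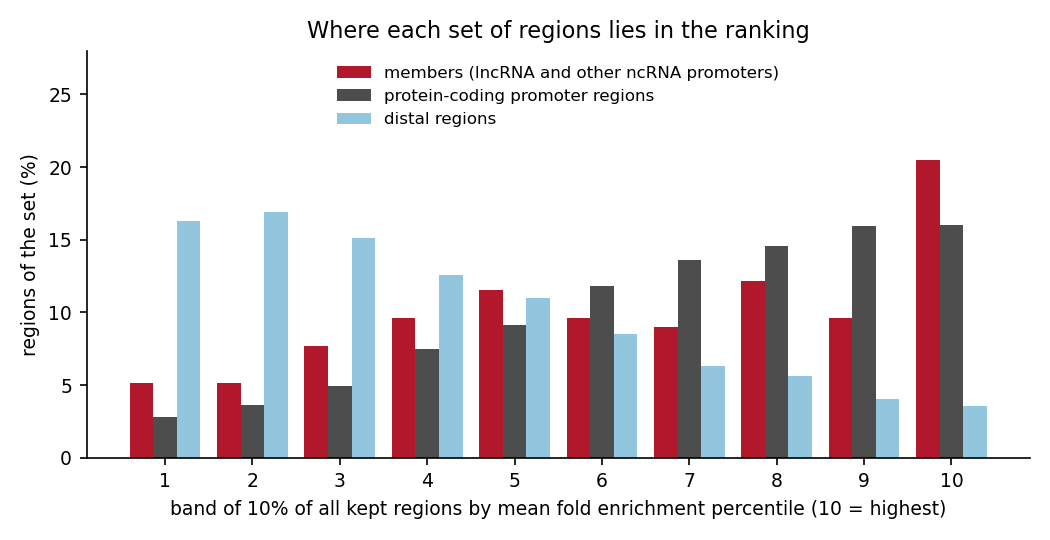
Share of members, protein-coding promoter regions and distal regions (vertical axis, percent of the set) by band of 10% of all kept regions ranked by mean fold enrichment percentile (horizontal axis, 10 being the highest band). The highest band held 20.5% of the 156 members, 16.0% of protein-coding promoter regions and 3.57% of distal regions.

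Width went with strength. Members had a median peak width of 984 bp in replicate 1 and 960.5 bp in replicate 2, against 1210 and 1190 bp at protein-coding promoter regions and 494 and 510.5 bp at distal regions. Among regions of 0.5 to under 1 kb the median percentile was 49.3 ± 2.27 for 52 members, 47.2 ± 0.634 for protein-coding promoter regions and 38.6 ± 1.09 for distal regions (SD, n = 2). At 1 to under 1.5 kb it was 75.1 ± 0.402 for 52 members, 68.2 ± 0.779 for protein-coding promoter regions and 57.8 ± 1.06 for distal regions. At 1.5 to under 2.5 kb the 32 members had 70.4 ± 4.32, against 81.0 ± 0.266 and 66.9 ± 1.26. The medians of members of like width were therefore above those of distal regions by more than the SD over replicates in the first 2 bands. In the widest band the 2 medians lay within it. The quartiles of members and distal regions overlapped in each band.

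Both replicates ordered the members alike. Fold enrichment ran between 1.37 and 7.20 in replicate 1 and between 1.38 and 6.997 in replicate 2, with a Spearman rho of 0.965 between replicates over 156 members, given as a description since the points share 2 libraries. Summits of the 2 replicates lay a median of 31.5 bp apart, and in 11 members over 250 bp apart. Poisson 95% intervals of fold enrichment overlapped in 152 members. The largest shifts in percentile were at weak peaks. asRNA:CR42860, inside the sallimus gene sls, was enriched 1.47-fold and 2.14-fold in replicates 1 and 2, lncRNA:CR44854 had 1.51 and 2.12, and lncRNA:CR44697 had 1.65 and 2.14.

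**Figure D2:**
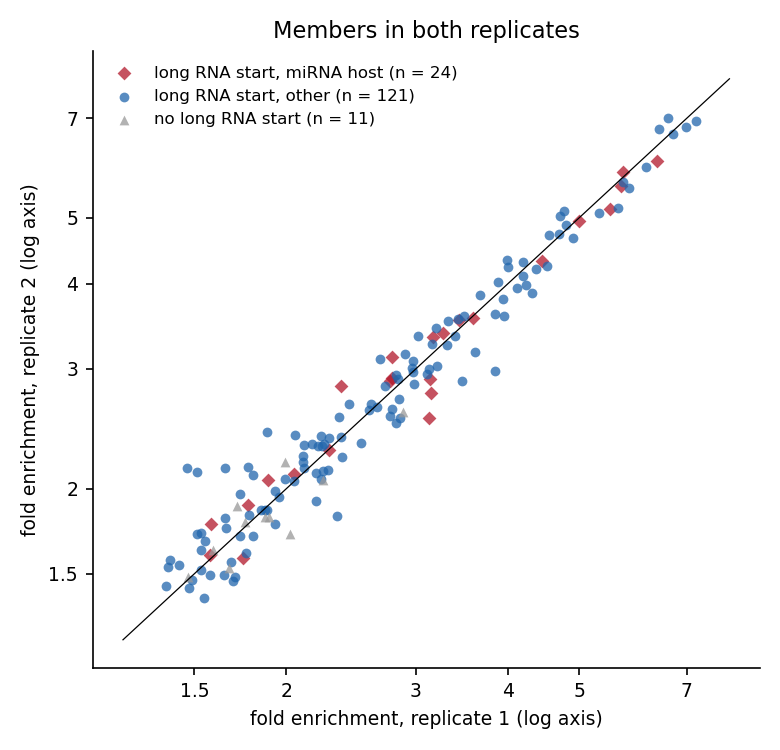
Fold enrichment of each of the 156 members in replicate 1 (horizontal log axis) and replicate 2 (vertical log axis), with the line of equal values. Diamonds are 24 long RNA members over a miRNA host, circles the other 121 long RNA members and triangles the 11 members without a long RNA start, all of which lie below a fold enrichment of 3.

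Median strength also differed by position within genes. The lead start lay outside protein-coding genes in 107 members (68.6%), antisense within one in 28 (17.9%) and on the same strand within one in 21 (13.5%). Their median percentiles were 70.3 ± 2.85, 54.7 ± 2.15 and 39.6 ± 3.65 (SD, n = 2). The SDs cover the spread between replicates and not that among regions. Quartiles of the regions overlapped, at 43.2 to 91.9, 28.3 to 71.1 and 31.3 to 54.7. Position was mixed with RNA class. Long RNA members made up 105 of the 107, 26 of the 28 and 14 of the 21, and the part of class was not tested. Members led by a lncRNA had 68.4 ± 1.61, those led by an asRNA 49.2 ± 2.25 and the 11 without a long RNA start 35.2 ± 0.441. A summit within a protein-coding gene was found in 31.4% of members, against 70.6% of distal regions and 69.6% of all kept regions. Distances of members and distal regions were alike in size, with 32.7% of members and 32.7% of distal regions more than 10 kb from a protein-coding TSS and medians of 5554 bp and 6268.5 bp.

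Some of the strongest members lay in or within 50 kb of the Hox complexes, the gene arrays that fix segment identity along the body. lncRNA:CR45899 starts at position 7000492 of 3R on the + strand, in a region 1260 bp from the nearest TSS of Antp, and had the highest percentile of all members, with a fold enrichment of 7.20 in replicate 1 (Poisson 95% interval 6.66 to 7.77) and 6.94 in replicate 2 (6.43 to 7.48). It ranked 12 among the 11705 kept regions. Its summit lay 497 and 503 bp downstream of the annotated start of this 932 bp RNA. lncRNA:CR44933 lay 37809 bp beyond the Antennapedia complex, in a region 14384 bp from the nearest protein-coding TSS, that of Sodh1. It had 6.98 and 6.80, with its summit 383 and 396 bp upstream of the start. lncRNA:CR45559, within the complex and 28784 bp from the pair-rule gene ftz, had 6.60 and 6.997, with its summit 120 and 122 bp downstream, and its value was the highest of any member in replicate 2.

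In the bithorax complex, lncRNA:iab8 gave 6.38 in replicate 1 and 6.06 in replicate 2 at 1 of its 8 annotated starts, with the summit 58 and 57 bp downstream. The RNA runs over 92116 bp on the − strand, holds mir-iab-8, and is known to keep the Hox gene abd-A low in the central nervous system. lncRNA:iab4, which holds mir-iab-4 and runs on the opposite strand, had 3.12 and 2.54. Near Dfd, a Hox gene of the head, lncRNA:CR42651 (the host of mir-10) had 3.14 and 2.90, and lncRNA:CR45915 had 1.95 and 1.94. These 7 members were all those within 50 kb of either complex, a group put together after their values were seen, and 4 of the 7 were in the highest 10% in both replicates, as were 19.9% of all members and 8.65% of all kept regions. Nothing is read from this count.

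Outside the Hox complexes, lncRNA:CR44904, 2931 bp from the zinc finger gene ham, had 6.42 and 6.74. Among members below the 10 highest, named after their values were seen, lncRNA:CR46454, 1675 bp from the zinc finger gene salm, had 4.77 and 5.11, and in the iroquois complex lncRNA:CR32111 (17702 bp from caup) had 4.80 and 4.88 while lncRNA:CR43431 (40118 bp from mirr) had 3.99 and 4.33. lncRNA:CR45223, antisense in CG14322, had 6.70 and 6.64, and its summit lay 505 and 511 bp upstream of the start. The rest of the 10 highest were lncRNA:CR45758 with 6.16 and 5.94, lncRNA:CR45347 with 5.74 and 5.84, lncRNA:CR45267 with 5.74 and 5.65 and lncRNA:CR46336 with 5.85 and 5.54. The Poisson intervals of the 2 replicates overlapped at each of the 10 highest members.

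Hosts of miRNAs had a member more often than other long RNA genes. Of 33 eligible lncRNA and asRNA genes that hold a miRNA hairpin on their own strand, 21 had a start in a member (63.6%, Wilson 95% interval 46.6 to 77.8%), against 128 of 1697 eligible long RNA genes without one (7.54%, 6.38 to 8.90%). The hosts are longer, with a median gene length of 7584 bp against 704 bp. Among genes of 5 kb or longer, 16 of 22 hosts (72.7%) and 12 of 56 others (21.4%) had a member. Among genes with 1 start, 11 of 20 hosts (55.0%) and 116 of 1632 others (7.11%) had one. No test was made over genes, and the part of gene length in the difference was not tested beyond this split.

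The 24 members led by a miRNA host had a median percentile of 74.1 ± 1.71, against 62.7 ± 1.36 for the other 121 long RNA members (SD, n = 2). Both genes of mir-276, a miRNA known to act in olfactory memory, were near the top by fold enrichment. lncRNA:CR46004 (mir-276b) had a fold enrichment of 5.71 and 5.57. lncRNA:CR46006 (mir-276a) had 2 members 31558 bp apart by their starts, with 5.002 and 4.95 at the upstream start and 5.51 and 5.15 at the downstream one. Its upstream region was also the member farthest from any protein-coding TSS, at 58177 bp.

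Hosts of miRNAs known from neurons followed. lncRNA:CR45919, the host of mir-124, a miRNA of neurons in flies and mammals, had 3.58 in replicate 1 and 3.57 in replicate 2. lncRNA:CR45910, the host of mir-1000, had 2.78 and 2.91. The host of mir-8, lncRNA:CR43650, had 3.43 and 3.54 at its upstream start and 2.28 and 2.28 at the downstream one, and that of mir-184, lncRNA:CR44206, had 4.45 and 4.32 at its upstream start and 1.58 and 1.77 downstream. The growth-promoting miRNA bantam (mir-ban) is cut from lncRNA:CR43334, which had 3.16 and 3.34 upstream and 1.75 and 1.58 at the start 11279 bp downstream. In these 3 genes the upstream start was the more accessible in both replicates, with Poisson intervals that did not overlap, and in lncRNA:CR46006 the intervals of the 2 starts overlapped.

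Fold enrichment and pileup ranked some of these hosts differently, since the local background that the pileup is divided by was not the same everywhere. lncRNA:CR43459, the host of mir-277 and mir-34 (a miRNA of brain ageing), had a fold enrichment of only 1.89 and 2.06, at percentile 41.5, but a pileup of 782 and 853 over a local background of 413 and 414, at pileup percentile 97.9. lncRNA:CR43651, the host of mir-14, had the highest pileup of all members in both replicates, 987 and 1089, with a fold enrichment of 2.78 and 3.12. The pileup of lncRNA:CR45910 was 947 and 964. Other hosts ranked lower by pileup. lncRNA:iab8 went from percentile 99.6 by fold enrichment to 89.6 by pileup, and lncRNA:CR46004 from 99.0 to 93.1. The downstream start of lncRNA:CR46006 went from 98.5 to 83.4, and lncRNA:CR31044 from 72.6 to 50.2. Over all 156 members the median percentile was 62.9 by pileup and 62.2 by fold enrichment.

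Other hosts with a member were those of mir-13a, mir-13b-1 and mir-2c (lncRNA:CR45911, 3.26 and 3.39), mir-279 and mir-996 (lncRNA:CR31044, 3.15 and 2.77), mir-bft (lncRNA:CR43314, 2.77 and 2.88), mir-282 (lncRNA:CR43626, 2.37 and 2.83), mir-9a (lncRNA:CR45916, 2.05 and 2.103), mir-252 (asRNA:CR17025, 1.78 and 1.89, in 1 member with the start of asRNA:CR46354, which holds the same miRNA) and mir-275 (lncRNA:CR43857, 1.57 and 1.60), besides mir-4973 in lncRNA:CR45347. Of the 12 eligible hosts without a member, lncRNA:let7C and lncRNA:Hsromega had peaks that came too near a protein-coding TSS. lncRNA:CR45361, the host of the muscle miRNA mir-1, had no peak over its start in replicate 1 and a peak with a fold enrichment of 2.02 in replicate 2. The other 9, among them the hosts of mir-375, mir-315 and mir-31b, had no peak in either replicate.

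**Figure D3:**
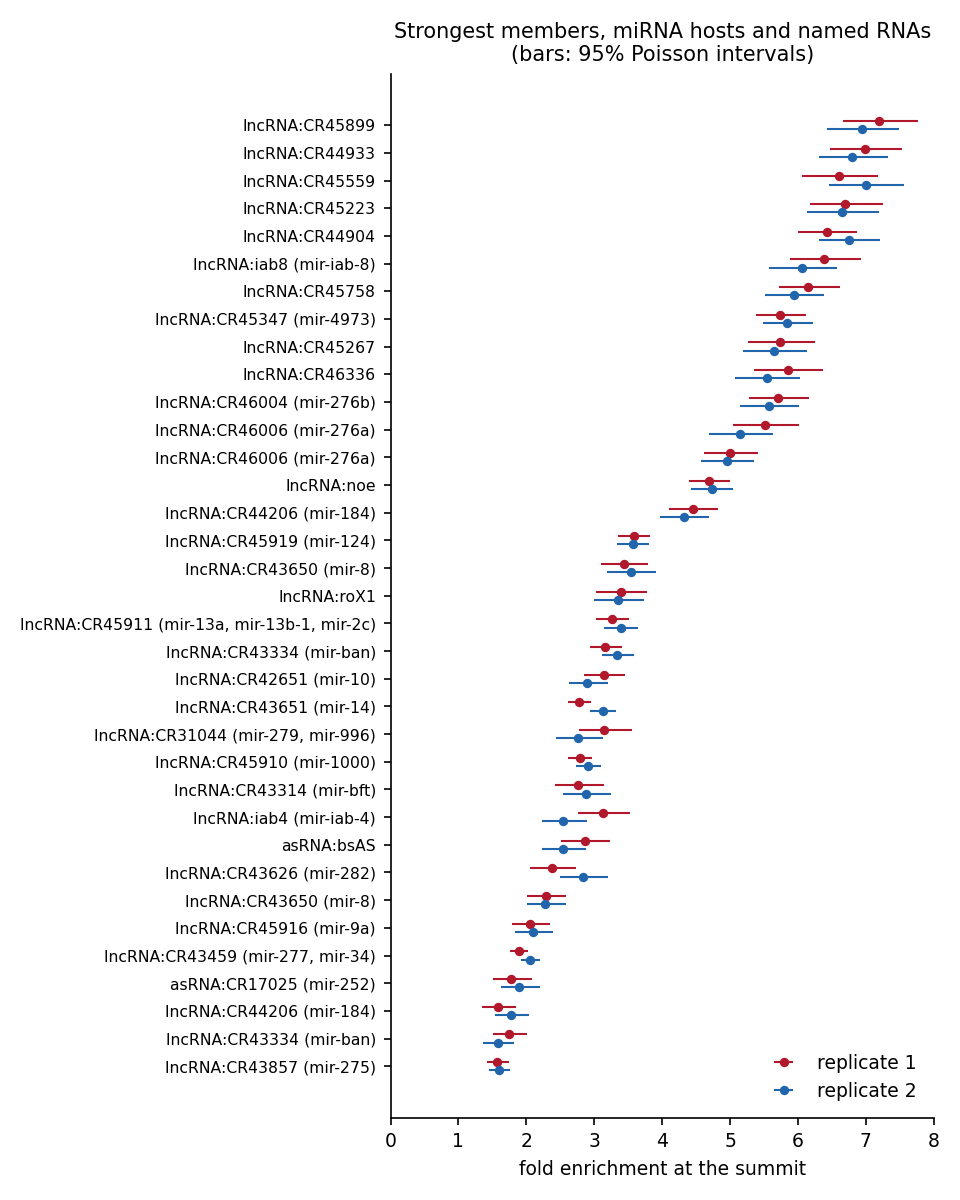
Fold enrichment at the summit (horizontal axis, from 0) in replicate 1 and replicate 2 for the 10 strongest members, the members over miRNA hosts (miRNA in parentheses) and 3 named RNAs, with 95% Poisson intervals of the pileup as bars. Values run from 7.20 at lncRNA:CR45899 to 1.57 at lncRNA:CR43857, and the 2 replicates of a member lie close together.

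RNAs with a name of their own were looked up next. Of 37 such RNAs, 6 had a member (16.2%, Wilson 95% interval 7.65 to 31.1%). By another measure, 8.77% of the 2359 eligible ncRNA genes had a peak of both replicates over a start. These shares are not like for like. Some of the 37, such as Uhg1, had no start more than 1 kb from a protein-coding TSS and could not have a member. The 8.77% also counted peaks that came too near a protein-coding TSS to be members. Of the 37, 9 had a kept region over or within 1 kb of a protein-coding TSS, 1 had a peak in 1 replicate and 21 had none. lncRNA:roX1, which with the MSL proteins marks the male X chromosome, had 3.39 in replicate 1 and 3.35 in replicate 2, with the summit 2 bp upstream of its start at position 3862697 of X in both. lncRNA:roX2 was also open, with 2.90 and 2.77, but too close to a protein-coding TSS to be a member. lncRNA:noe, on the same strand within an intron of blot, had 4.69 and 4.73. asRNA:bsAS, antisense to the transcription factor gene bs, had 2.86 and 2.54, and the RNA of RNase MRP, an enzyme of ribosomal RNA processing, had 2.88 and 2.60.

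No peak of either replicate lay over a start of lncRNA:bxd of the bithorax complex, lncRNA:cherub (an RNA of neural stem cells and their tumours), lncRNA:yar, lncRNA:sphinx, lncRNA:acal, lncRNA:Vinr or lncRNA:flam, the piRNA cluster of the ovary. Peaks were called at a q-value of 0.01, so this says only that no peak was called at this depth.

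The weakest members were close to the calling limit. lncRNA:CR44785 had 1.37 and 1.44 with pileups of 114 and 128. Then came lncRNA:CR45531 with 1.48 and 1.43, asRNA:CR46058 with 1.38 and 1.53, lncRNA:CR46095 with 1.55 and 1.38 and mir-4978 with 1.47 and 1.49. Just inside the distance limit lay lncRNA:CR45005 (1007 bp from the TSS of Cdlc2) with 2.11 and 2.15, lncRNA:CR45292 (1008 bp) with 2.11 and 2.32 and asRNA:CR31912 (1092 bp) with 2.21 and 2.31. Just outside it lay lncRNA:CR43700 (971 bp) with 1.73 and 1.92, asRNA:CR45999 (917 bp) with 1.47 and 1.38 and lncRNA:CR32636 (882 bp) with 1.70 and 1.71. The widest members were those of lncRNA:CR43334 at 3004 bp, asRNA:CR45126 at 2793 bp and lncRNA:CR45911 at 2767 bp.

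Neighbours of members were compared with a list of genes of MB identity and memory. Of 49 such genes listed, 48 were found, and 1 member (0.641%, Wilson 95% interval 0.113 to 3.54%) had one of them as its host or nearest protein-coding gene, against 3.63% of distal regions and 2.32% of all kept regions, the last of which lies inside that interval. That member, over mir-4967 within the protein kinase A subunit gene Pka-R2, had 2.03 in replicate 1 and 1.72 in replicate 2 and held no long RNA start. Genes outside the list were named after the neighbours were seen. Fmr1, an RNA-binding protein gene of synapses and memory, was the nearest protein-coding gene of 2 members (lncRNA:CR43459 and mir-277). These are of the same locus, since mir-277 lies within lncRNA:CR43459, and the mir-277 member held no long RNA start. Appl, the fly gene of the amyloid precursor protein family, held 1 (mir-4960). The share of all kept regions beside these genes was not counted, and nothing is read from them. Only osa, a gene of the chromatin remodeller BAP, had 2 members inside it, lncRNA:CR46035 and lncRNA:CR46036.

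The X chromosome had few members. Of 197 eligible long RNA genes on X, 9 had a peak over a start in both replicates (4.57%, Wilson 95% interval 2.42 to 8.45%), against 150 of 1518 on chromosomes 2 and 3 (9.88%, 8.48 to 11.5%). Protein-coding genes with such a peak made up 47.3% on X and 49.3% on chromosomes 2 and 3. X held 5.77% of members and 13.2% of all kept regions. Males carry a single X, and its part in the lower share was not tested. The highest member on X was lncRNA:CR44997, an RNA of 140359 bp, with 4.20 and 4.30, followed by lncRNA:roX1.

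Summits sat less tightly on annotated starts than at protein-coding genes. In long RNA members the median distance from the summit to the nearest long RNA start was 183 bp ± 7.07 (SD, n = 2), and 32.8% ± 4.39 of summits lay within 100 bp. At protein-coding promoter regions the median was 89 bp in both replicates, and 53.7% ± 0.172 lay within 100 bp. A distance above 500 bp was found in 12.8% ± 0.488 of long RNA members and 5.45% ± 0.148 of protein-coding promoter regions. The nearest start is closer where a region holds more starts. The 5747 protein-coding promoter regions held 9458 TSSs and the 145 long RNA members held 165 long RNA starts. The part of this in the difference was not tested. A wide scatter does not mean that each start was off, since lncRNA:roX1, lncRNA:CR46348 (19 and 14 bp) and lncRNA:CR45911 (37 and 31 bp upstream) had summits on their starts.

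**Figure D4:**
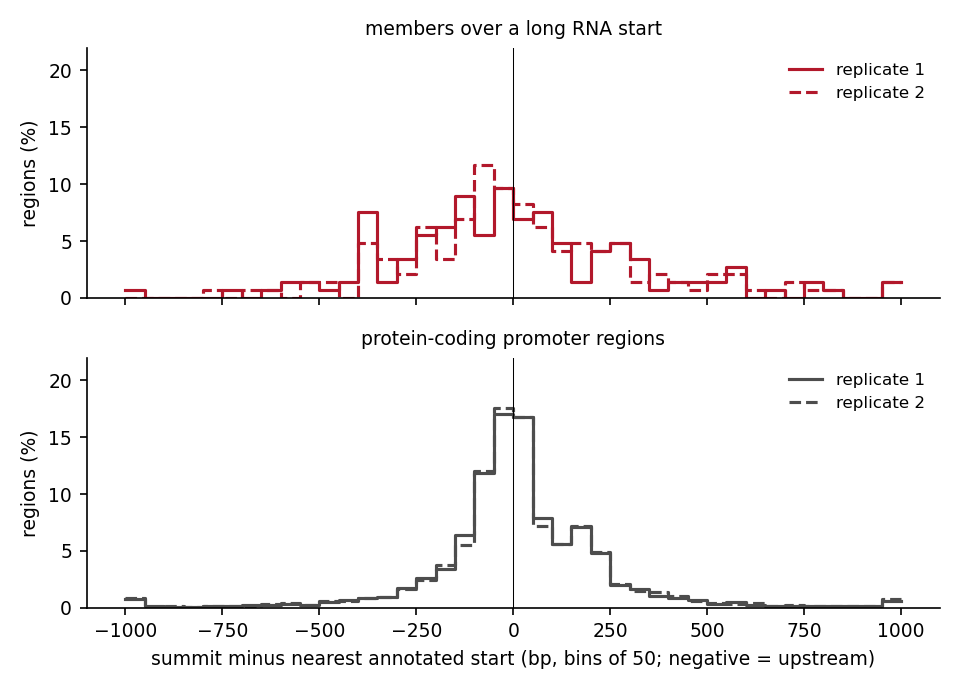
Distance of the summit from the nearest annotated start (horizontal axis, bp in bins of 50, negative being upstream, distances beyond the axis pooled in the end bins) as a percent of regions (vertical axis) for long RNA members above and protein-coding promoter regions below, in both replicates. The median distance is 183 bp in the upper panel and 89 bp in the lower.

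Motifs at the summits were described without a test. Exact matches on both strands were counted up to 100 bp to each side of the summit, taken as the mean position of both replicates. The motifs of the widely used promoters of fly housekeeping genes, the DNA replication-related element TATCGATA (DRE) and the Motif 1 core GGTCACAC, were each found in 0 of 156 members, which allows a share of up to 1.92% if 3 counts are taken as the limit of a count of 0, and of up to 2.403% by the Wilson 95% interval drawn in the plot of motif shares. They were found in 5.59% and 6.35% of protein-coding promoter regions, in 0.355% and 0.543% of distal regions and in 3.02% and 3.43% of all kept regions. In this the members resembled distal regions, whose shares a count of 0 cannot be told apart from. The windows were centred on summits and not on starts. Summits lay within 100 bp of a start in 32.8% of long RNA members and 53.7% of protein-coding promoter regions. The part of this in the motif shares was not tested.

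GAGAGAG was found in 23 members (14.7%, Wilson 95% interval 10.03 to 21.2%), against 10.5% of protein-coding promoter regions, 9.12% of distal regions and 9.87% of all kept regions. With 50 bp on each side the share was 7.05% of members and 5.95% of protein-coding promoter regions. Among the members of the highest 10% in both replicates 10 of 31 carried it (32.3%, 18.6 to 49.9%), against 17.7% of protein-coding promoter regions, 28.8% of distal regions and 19.5% of all kept regions there, a share inside the interval of members. Of the printed windows, that of lncRNA:CR32111 holds the longest run. Median GC content of the 201 bp windows was 51.2% in members, 46.3% in protein-coding promoter regions and 50.2% in distal regions.

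Motifs of activity-regulated and other factors were counted in the same windows. The EGR site GTGGGCG was found in 10 members (6.41%), against 3.25% of protein-coding promoter regions, 9.71% of distal regions and 6.25% of all kept regions. The CRE TGACGTCA was found in 3 members (1.92%, 0.656 to 5.50%) and 0.505% of protein-coding promoter regions, with 0.513% of all kept regions. The AP-1 site TGACTCA was found in 2 members (1.28%, 0.352 to 4.55%) and 1.76%, with 1.84% of all. The member interval lay above the protein-coding share for EGR and CRE, and for CRE also above that of all kept regions. With 50 bp on each side the CRE was found in 0 members. AAAGGTCA, a site of orphan nuclear receptors, was found in 0 members and 0.367% of all kept regions. The E-box CAGCTG was found in 14.1% of members and 16.4% of protein-coding promoter regions, and the E-box CACGTG in 3.21% and 3.67%. The Zelda site CAGGTAG was found in 0.641% of members and 1.06% of protein-coding promoter regions, and TATAAA at any place in the window in 13.5% and 17.1%. The shares of all kept regions for these 4 motifs were 14.0%, 4.34%, 1.07% and 14.9%. For each of these 4 motifs the interval of members held the protein-coding share.

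**Figure D5:**
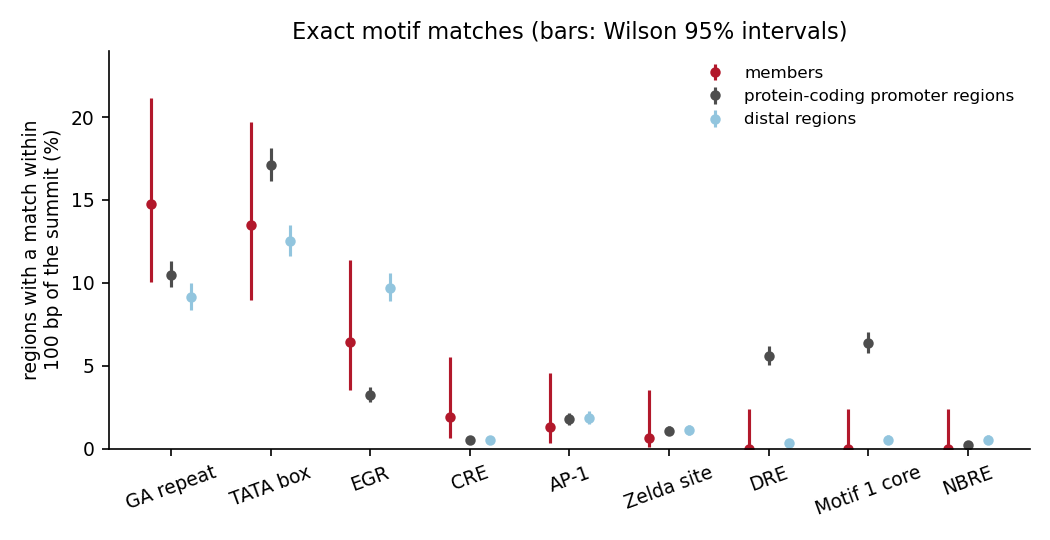
Share of regions with an exact motif match within 100 bp of the summit (vertical axis, percent) for members, protein-coding promoter regions and distal regions, with Wilson 95% intervals as bars. DRE and the Motif 1 core are at 0 in members and at 5.59% and 6.35% in protein-coding promoter regions.

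Core promoter motifs were then counted at the annotated starts. An initiator was found at 18 of 165 long RNA starts in members (10.9%, Wilson 95% interval 7.01 to 16.6%), against 9.82% of 9458 protein-coding TSSs in kept regions and 4.39% of 1663 long RNA starts outside members (3.51 to 5.48%). At the starts of miRNA hosts the share was 25.9% (7 of 27, 13.2 to 44.7%). The A of the initiator is on the annotated base in the printed windows of lncRNA:CR46004, lncRNA:CR46006, lncRNA:CR31044 and the upstream start of lncRNA:CR43334. A TATA box in its place was found at 3 long RNA starts (1.82%), against 2.04% of protein-coding TSSs. lncRNA:CR31044, the host of mir-279 and mir-996, was the 1 start with both. A match is a description of the letters and not of a bound factor.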

How the data were processed

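ATAC-seq was analysed from 2 deposited peak lists, 1 per naive replicate. According to the methods and labels, the authors trimmed reads (Trimmomatic 0.39), aligned them to dm6 (Bowtie2 2.4.1), shifted them for Tn5, removed duplicate, multi-mapping, mitochondrial and scaffold reads, and called peaks per replicate with MACS2 2.1.2 at a q-value of 0.01. No control library was named, so the background came from the same library. The deposited fold enrichment is a ratio of pileup to local background at the summit, with a pseudocount of 1. The deposited significance is the −log10 of the p-value and of the q-value. The deposited score, which repeats the −log10 q, was left out. The deposited summit offset gave summit positions.

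Depth came from solving pileup and background from fold enrichment and p, which left pileups within 0.0183 and 0.0221 of whole numbers in the 2 replicates, and the solver was tested on simulated data. Intervals cover counting error only. Regions were merged, ranked and compared with Python 3.11.15, numpy 2.4.6, pandas 2.3.3 and scipy 1.17.1. Starts came from Ensembl release 115 (BDGP6, the dm6 assembly) without transposable elements, and sequences from the RefSeq copy of that assembly, whose chromosome lengths contained all peaks. Values are means ± SD over replicates. Members minus other regions was tested by an exact sign-flip permutation over replicates. Shares and motifs were described without a test.

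The members and lists were chosen with earlier results of these data known. The width bands, the share of miRNA hosts with a member, the Hox group, the X chromosome share and GAGAGAG by strength were chosen after their values were seen. Genes named were the 10 highest and 5 lowest members, the 3 on each side of the distance limit, the 3 widest, the 3 least alike between replicates, named RNAs, hosts of small RNAs, neighbours on the MB list, protein-coding genes with 3 or more members inside (none), and others named after their values were seen (salm, caup and mirr neighbours, osa, Fmr1, Appl, lncRNA:CR44997 and lncRNA:CR46348). Adcy1 was not found under that symbol. Alternatives were another overlap, threshold, distance limit, TSS choice, gene class, ranking measure, motif window and single replicates.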

Additional observations from a re-analysis of the deposited data

How the results depend on the processing

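The number of members stayed within 1.5 times of 156 under each alternative (111 to 167), and was 148 to 154 from a single replicate. Members minus protein-coding promoters, −5.33 percentile points, changed direction to 0.91 with lncRNA symbols only and, in bands chosen after seeing the data, to 2.09 at 0.5 to 1 kb and 6.84 at 1 to 1.5 kb. It stayed negative otherwise, −0.66 at 3 kb and −10.6 at 1.5 to 2.5 kb among them, and was −5.86 to −3.13 with a single replicate. Their median percentile was 60.1 at a −log10 q of at least 5, 66.9 at a limit of 3 kb, 68.4 with lncRNA symbols and 66.9 to 70.7 from a single replicate.

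The share of eligible ncRNA genes with a peak, 9.86%, was 9.09% with 50% reciprocal overlap, 9.39% at a −log10 q of at least 5, 11.3%, 9.21% and 9.19% at limits of 500 bp, 2 kb and 3 kb, 9.67% with the most upstream TSS, 10.6% with lncRNA symbols, 7.61% without regions over small RNA, tRNA, rRNA or pseudogene starts, and 9.79 to 9.92% per replicate. Median width was 1020.5, 1044, 991.5, 954.5, 1008 and 948 bp with reciprocal overlap, the stricter q, 3 kb, the most upstream TSS, lncRNA symbols and without those regions, and 966.5 to 1046.5 bp from a single replicate. Median distance from summit to start was 187.5 bp with reciprocal overlap and with the stricter q, 169 bp at 2 kb, 170.5 bp without those regions and 133 to 156.5 bp from a single replicate. Within 50 bp of the summit, GAGAGAG and CAGCTG each fell to 7.05%, TATAAA to 7.69%, and CAGGTAG and TGACGTCA to 0, in a window with fewer bases. The cause of the other shifts was not tested. No paired analysis was possible because there was 1 group. Depth limits what the lists hold: a start without a called peak can still be weakly open.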

Other observations

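At members' positions, the strongest peak called in a single replicate lay in replicate 2 over the starts of lncRNA:CR44980 and lncRNA:CR45361, the host of mir-1, with a fold enrichment of 2.02 and a width of 978 bp. Of the peaks called in replicate 1 alone, the strongest lay over lncRNA:CR43492 on X, with 1.64.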
